A study of Mus musculus with 24 samples.

Results

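The comparison described here set explants of the mouse organ of Corti (OC) that had been exposed to pioglitazone alone for 24 h (PIO, 3 libraries) against explants exposed to gentamicin alone for 24 h (GM, 3 libraries). Members were all libraries that carry these 2 labels, 6 of the 24 in the series, and every gene with enough counts was tested. OCs came from 5-day-old C57BL/6N pups of both sexes, were kept for 24 h in medium with fetal calf serum and penicillin, and then received 10 μM pioglitazone or 50 μM gentamicin. The other groups used here were untreated explants (CTRL) and explants given 10 μM pioglitazone and 50 μM gentamicin together (PIO + GM), each with 3 libraries, and the PIO, GM and CTRL libraries of 6 h. Each library pooled 6 OCs. The neonatal explant holds the sensory epithelium together with attached nerve, connective tissue, vessels and resident macrophages, without blood supply.

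Gentamicin is an aminoglycoside antibiotic that enters cochlear hair cells, the sensory cells of hearing, and damages them. Pioglitazone activates PPAR-γ, a nuclear receptor that pairs with retinoid X receptors on DNA and switches on genes of fatty acid transport and oxidation. Ligand-bound PPAR-γ is also known to restrain inflammatory transcription in macrophages and other cells. A head-to-head comparison of the single drugs adds up what one drug raised and what the other lowered, so CTRL and PIO + GM levels are given for selected genes and, for all genes past the threshold, in the plot of group means relative to CTRL.

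The reads counted on genes numbered 12311991, 15093084 and 14619328 in GM replicates 1, 2 and 3 and 15548856, 15410426 and 13936943 in the PIO replicates, and genes with at least 1 count numbered 18919 to 20693 and 18164 to 19272. At these totals 3 counts stand for 0.193 to 0.244 CPM (counts scaled to a common library total), a floor that covers counting error only. Replicates differed by more than counting noise, with a chi-square of 10.2 to 51.9 per degree of freedom. Nothing in the sources says that replicates came from separate litters or days, so p-values measure the spread between these libraries, which may be partly technical. The sexes were not evenly mixed, since the Y-linked gene Eif2s3y had 395, 322 and 1 counts in GM and 1, 573 and 406 in PIO, so that 1 library of each group held almost none of this male transcript. Defining markers of the tissue were present, with summed levels of 1153 to 1506 CPM over 36 hair cell markers and 8800 to 15049 CPM over 29 supporting cell markers in GM and of 1026 to 1698 and 7266 to 15399 CPM in PIO. In such bulk RNA, fewer cells of a type and less RNA per cell cannot be told apart.

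With edgeR's quasi-likelihood test and a threshold of 0.05 on the adjusted p-value, 74 of 16317 genes differed between the drugs (0.454%). Only 7 were higher with PIO (0.0429%) and 67 were lower (0.411%), while the median log2 fold change over all genes was 0.00 and 49.3% of genes were lower. An unadjusted p-value under 0.05 was reached by 593 genes in the higher direction (3.63%) and 1068 in the lower (6.55%). In each of the 74 genes the 3 PIO libraries lay wholly on one side of the 3 GM libraries (called separated in what follows), a pattern found in 11.4% of all tested genes in the higher direction and in 10.1% in the lower. Of the 67 lower genes, 27 averaged under 2 CPM over the 24 libraries, as did 2311 of the 16317 tested genes. With the GC trend of each library taken out, 29 genes were higher and 113 lower. The number past the threshold was 13, 14 and 22 without PIO replicate 1, 2 or 3 and 36, 63 and 27 without GM replicate 1, 2 or 3. Of the 74 genes, 15 passed in none of these 6 models and 8 in each (Acta2, Angptl4, Cpt1a, Crx, Ecm2, Fer1l4, Mc1r and Plac9b).

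**Figure D1:**
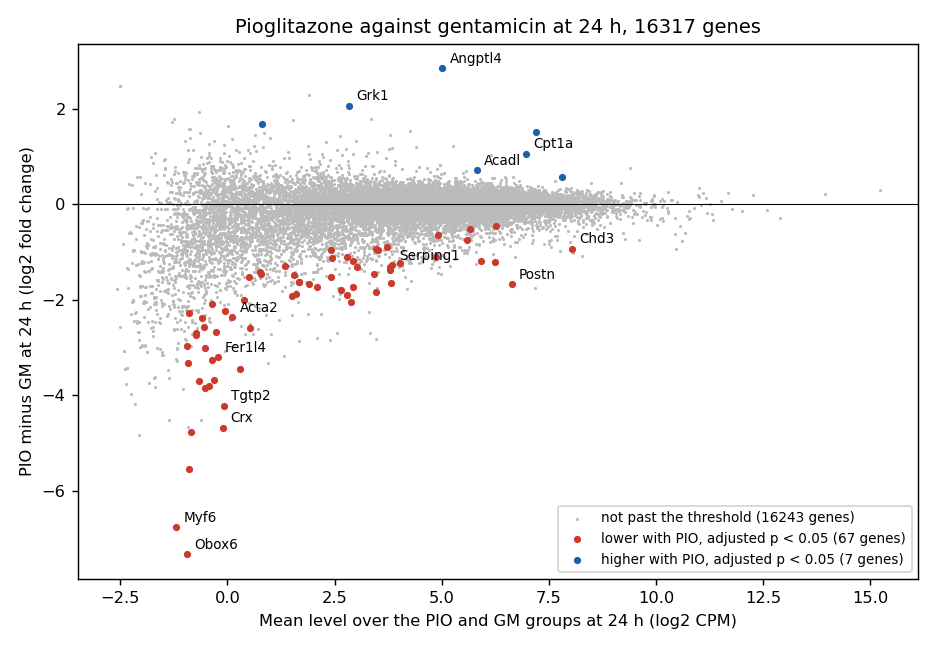
Each point is 1 of 16317 genes, with the mean level of the PIO and GM groups at 24 h (log2 CPM) across and the fitted log2 fold change, PIO minus GM, upward; blue and red mark the 7 higher and 67 lower genes past the threshold. Most of the red points lie at low to middle levels, and fitted values of genes at or near 0 counts in PIO, such as Obox6 and Myf6, depend on the prior count and are no measure of size.

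PPAR target and fatty acid use genes held 4 of the 7 genes past the threshold in the higher direction. Angptl4, which encodes a secreted inhibitor of lipoprotein lipase, had 128, 223 and 160 counts in GM and 1095, 1642 and 1176 in PIO. All PIO libraries stood far above all GM libraries (log2 fold change 2.84, SE 0.42, edgeR adjusted p = 0.00503). Cpt1a, the enzyme that commits long-chain fatty acids to import into mitochondria, had 997, 1296 and 1332 counts in GM and 2832, 2964 and 2302 in PIO (1.06, SE 0.12, adjusted p = 0.000204). Acadl, a dehydrogenase of the first step of β-oxidation, had 516, 706 and 632 counts in GM and 1045, 1198 and 1008 in PIO (0.71, SE 0.12, adjusted p = 0.00939). In these 3 genes the GM mean lay nearer to CTRL than the PIO mean did, and the PIO + GM mean lay close to that of PIO. For Angptl4 the means on the log2 CPM scale were 3.10 in CTRL, 3.60 in GM, 6.43 in PIO and 6.26 in PIO + GM.

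The list of PPAR target and fatty acid use genes held 48 entries, of which 41 were tested. Of these, 28 were higher and 13 lower with PIO, and 4 passed the threshold, all higher. Separated upward were 16 and downward 4, against 11.4% and 10.1% of all genes. The median log2 fold change was 0.27, against 0.00 over all genes. The kinase gene Pdk4, which shuts off the use of pyruvate, had 86, 105 and 164 counts in GM and 329, 409 and 293 in PIO, separated but just short of the threshold (1.45, SE 0.33, edgeR adjusted p = 0.0514 and DESeq2 adjusted p = 0.00316). Acadvl, the very-long-chain counterpart of Acadl, had a log2 fold change of 0.46 (adjusted p = 0.160). Plin2, which coats lipid droplets, had 598, 738 and 769 counts in GM and 675, 685 and 561 in PIO (-0.23, SE 0.22, adjusted p = 0.836), and its relative Plin4 had 123, 144 and 219 against 53, 106 and 46 (-1.34, SE 0.42, adjusted p = 0.188). Of 19 genes for PPARs, RXRs and their cofactors, 0 passed edgeR's threshold, 0 had an unadjusted p-value under 0.05 and 0 passed with DESeq2. Pparg itself was scarce, with 18, 12 and 29 counts in GM and 18, 8 and 18 in PIO (-0.51, SE 0.41, adjusted p = 0.777).

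Other higher genes were of different kinds. Nxf1, the main export receptor for mRNA in the nuclear pore, had 2164, 2712 and 2756 counts in GM and 3861, 4061 and 4220 in PIO (log2 fold change 0.58, SE 0.10, edgeR adjusted p = 0.0135). Rdh9, a retinol dehydrogenase gene, had 12, 10 and 15 against 35, 47 and 45 counts (1.67, SE 0.34, adjusted p = 0.0273), but 65.2% of its 76-base windows also occur in other transcripts, chiefly Rdh16f1. Grk1, which encodes rhodopsin kinase of photoreceptors, had 31, 63 and 52 counts in GM and 244, 211 and 192 in PIO (2.06, SE 0.42, adjusted p = 0.0290). Unlike the fatty acid genes, Grk1 was at its CTRL level with PIO (means 3.86 and 4.04 log2 CPM) and low in GM (1.81) and in PIO + GM (1.94). The calls of Rdh9 and Grk1 were each lost when any 1 library was left out.

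**Figure D2:**
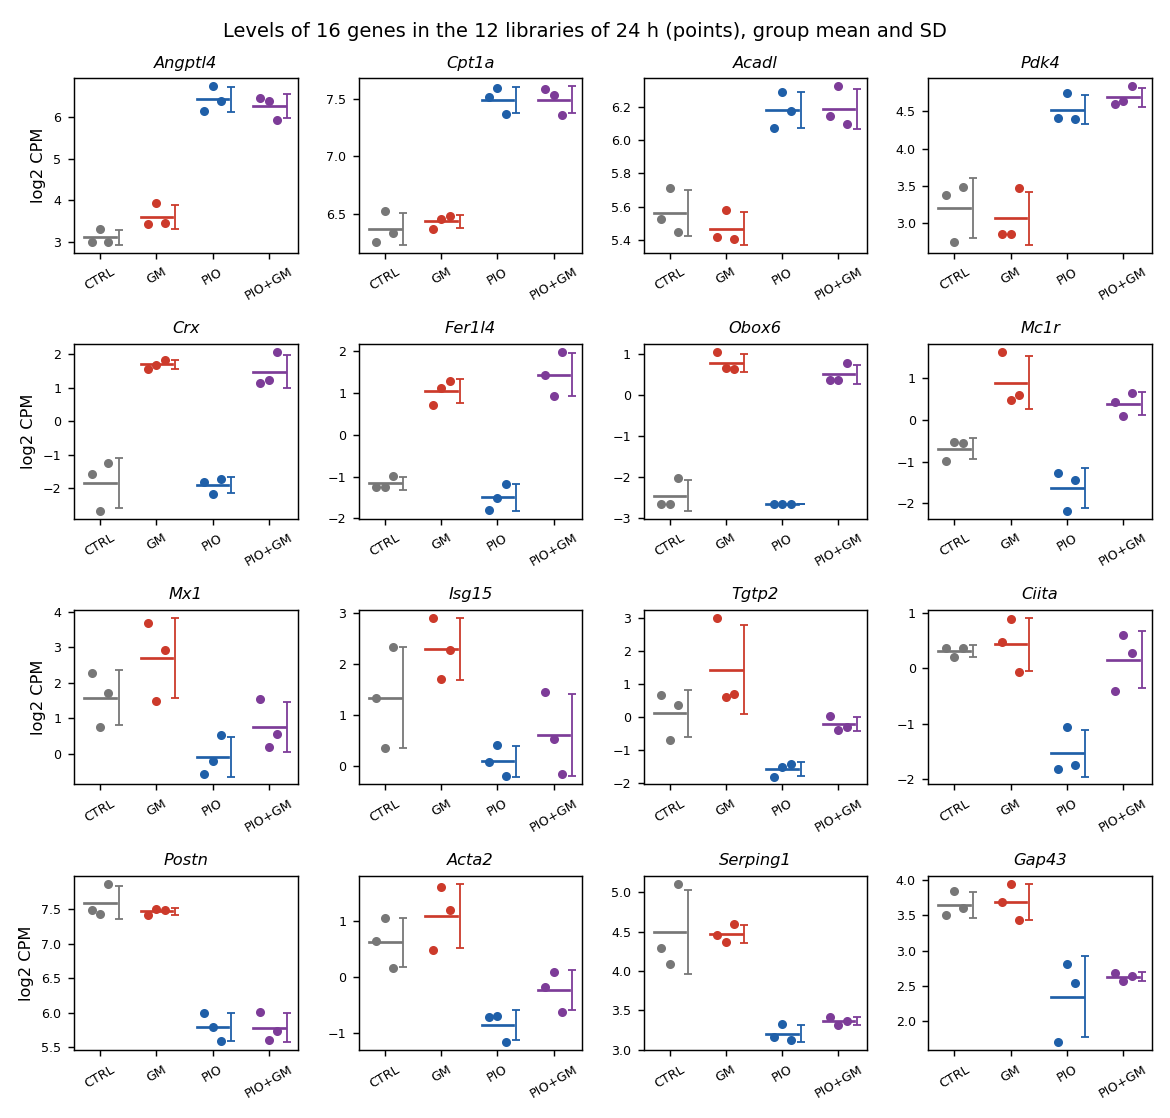
Points are the 12 libraries of 24 h for 16 genes, on the log2 CPM scale with a separate axis for each gene; bars are group means and whiskers 1 SD (n = 3). Angptl4, Cpt1a, Acadl and Pdk4 (top row) were high in both groups with pioglitazone, scarce genes of the second row were high in both groups with gentamicin, and Postn, Serping1 and Gap43 were low in both groups with pioglitazone.

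Several scarce transcripts were all but absent with PIO and present with GM, and most of those named here were also scarce in CTRL. Crx, the homeobox factor that drives photoreceptor genes, had 34, 45 and 51 counts in GM and 2, 1 and 2 in PIO. Its CTRL libraries had 2, 0 and 3 counts and its PIO + GM libraries 31, 29 and 49. The summed counts of 130 in GM and 5 in PIO stand in a ratio of 27.9 after scaling for depth (95% exact interval 11.6 to 87.3, counting error only, edgeR adjusted p = 0.000144), the lowest p-value of the comparison. Fer1l4, a gene of the ferlin family of membrane fusion proteins, had 18, 30 and 34 counts in GM and 2, 3 and 4 in PIO (log2 fold change -3.20, SE 0.41, adjusted p = 0.00110). Obox6, an oocyte homeobox gene, had 23, 21 and 21 counts in GM, 0 in every PIO library and 17, 15 and 19 in PIO + GM, so it was at least 7.33-fold lower with PIO when 3 counts per library are taken as the floor (edgeR adjusted p = 0.00939). Myf6, a factor of skeletal muscle differentiation, had 13, 15 and 16 counts in GM and 0 in each PIO library, at least 4.90-fold lower (adjusted p = 0.0106).

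The pseudogene Fut4-ps1 (19, 17 and 26 counts in GM against 0, 1 and 0 in PIO, edgeR adjusted p = 0.00590) and Gm3336 (19, 24 and 18 against 0, 2 and 0, adjusted p = 0.0167) showed the same split. Mc1r, the receptor that sets pigment type in melanocytes, had 35, 18 and 20 counts in GM and 4, 1 and 3 in PIO (log2 fold change -3.26, SE 0.46, adjusted p = 0.00297). Pde4c, a phosphodiesterase that degrades cyclic AMP, had 43, 45 and 49 against 6, 2 and 5 counts (-3.46, SE 0.72, adjusted p = 0.0334), with 67, 38 and 62 in PIO + GM, but its call was lost when any 1 library was left out. Ampd1, the AMP deaminase of skeletal muscle, had 23, 24 and 42 against 3, 0 and 4 (-3.67, SE 0.67, adjusted p = 0.0155). Pnpla1, a lipid enzyme of the skin barrier, had 11, 13 and 17 against 1, 1 and 2 (adjusted p = 0.0198). Spata20 had 40, 13 and 28 against 3, 1 and 2 (adjusted p = 0.0155), and here PIO + GM was lower, with 15, 2 and 10. Serpind1, which encodes the thrombin inhibitor heparin cofactor II, had 24, 20 and 29 counts in GM and 2, 0 and 3 in PIO (adjusted p = 0.0230), with CTRL between them at 12, 7 and 8. Clrn2, a gene of hair bundle maintenance, had 16, 13 and 34 against 5, 2 and 1 counts (adjusted p = 0.0155) and 8, 9 and 7 in CTRL.

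Some of these transcripts are neighbours in the genome (build GRCm38). Crx lies at chr7:15865947-15879955 on the minus strand, and Obox6 lies 26.3 kb beyond its 3′ end on the same strand, at chr7:15833250-15839679. Gm3336, at chr8:70718495-70722635, ends 1.20 kb before the start of Pde4c, at chr8:70723835-70751186, and both are on the plus strand. Of the 74 genes past the threshold, 4 pairs lay within 100000 bases of each other. The others were Nxf1 with Lrrn4cl, which moved in opposite directions, and C1qtnf5 with Mfrp, which overlap and had identical counts in each library, so they are 1 measurement. Whether reads of the neighbouring pairs belong to 1 transcript was not tested. The number of pairs within 100000 bases that any 74 tested genes would give was not counted.

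Several genes of contractile cells and extracellular matrix were lower with PIO, and those named here, apart from Postn, were chosen after their values were seen. Postn, which encodes the matrix protein periostin, had 2064, 2698 and 2690 counts in GM and 989, 852 and 667 in PIO (log2 fold change -1.68, SE 0.29, edgeR adjusted p = 0.0115). It was as high in CTRL as in GM (means 7.60 and 7.47 log2 CPM) and as low in PIO + GM as in PIO (5.78 and 5.79). The smooth muscle actins were scarce and lower: Acta2 had 15, 43 and 32 counts against 7, 7 and 4 (-2.37, SE 0.37, adjusted p = 0.00710), and Actg2 58, 35 and 35 against 7, 7 and 9 (-2.59, SE 0.50, adjusted p = 0.0198). Tagln, an actin-binding protein of smooth muscle, fell by 1.30 on the log2 scale (adjusted p = 0.0198), with 53.1% of its windows shared with other transcripts, and Des, the muscle intermediate filament desmin, fell by 0.94 (adjusted p = 0.0408). Among matrix genes, Ecm2 had 208, 192 and 230 counts in GM and 66, 31 and 66 in PIO (-2.05, SE 0.33, adjusted p = 0.00710), Mfap4, an elastic fibre protein, had 339, 346 and 263 against 190, 128 and 82 (-1.38, adjusted p = 0.0174), and Pcolce, which enhances procollagen processing, had 1084, 1540 and 1206 against 541, 802 and 476 (-1.18, adjusted p = 0.0338).

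Of 15 mesenchymal and fibroblast markers tested, 13 were lower and 1 passed the threshold (Postn), with a median log2 fold change of -0.68. Separated downward were 3, against 10.1% of all genes. DESeq2 and edgeR's likelihood ratio test each passed 3 of the 15 markers. Col3a1, a fibrillar collagen, had 25766, 38252 and 19721 counts against 12514, 18782 and 15385 (-0.95, edgeR adjusted p = 0.121 and DESeq2 adjusted p = 0.0249), and the proteoglycan gene Dcn had a log2 fold change of -1.01 (edgeR adjusted p = 0.143 and DESeq2 adjusted p = 0.0466). The summed level of the list was 5847 to 8512 CPM in GM, 6095 to 7013 in CTRL and 4170 to 5386 in PIO, so the summed level of these markers was lower in all PIO libraries than in any GM library, and its part in the differences of the matrix genes was not tested. The median of the list was -0.40 without GM replicate 2.

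Other genes past the threshold in the lower direction, chosen after their values were seen, had different roles. S100a4, a calcium-binding protein of motile fibroblasts, had 144, 203 and 200 counts in GM and 48, 60 and 49 in PIO (log2 fold change -1.89, SE 0.30, edgeR adjusted p = 0.00768), although 44.7% of its windows are shared. Plau, the urokinase plasminogen activator, had 264, 254 and 214 against 91, 119 and 79 counts (-1.47, SE 0.31, adjusted p = 0.0338). Gli1, a transcription factor and target of Hedgehog signalling, had 120, 197 and 176 against 49, 72 and 31 (-1.79, SE 0.35, adjusted p = 0.0198). Chd3, the helicase of the NuRD chromatin complex, was abundant, with 4455, 5673 and 5078 counts in GM and 3013, 3174 and 2419 in PIO (-0.93, SE 0.16, adjusted p = 0.0106). Sumo3, a small protein modifier, had a smaller difference, with 1044, 1272 and 1437 against 1094, 963 and 886 counts (-0.45, SE 0.08, adjusted p = 0.0174). The near-identical Plac9a and Plac9b fell by 1.47 and 1.68 on the log2 scale (adjusted p = 0.0113 and 0.00590), and reads of the pair cannot be assigned to one of them with certainty. The calls of Des, Pcolce and Plau were each lost when any 1 library was left out. Actg2, Tagln, Gli1 and Sumo3 passed in 2 of the 6 models without 1 library, and Postn and Mfap4 in 3. Chd3 and Plac9a passed in 4 of these models and S100a4 in 5.

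Some genes of neurons passed the threshold in the lower direction, as did 67 of the 74 genes in all. Gap43, a protein of growing axons, had 154, 226 and 159 counts in GM and 48, 105 and 79 in PIO (log2 fold change -1.31, SE 0.23, edgeR adjusted p = 0.0142), and it was the single member of the 20 spiral ganglion neuron markers past the threshold. That list had 10 members higher and 10 lower and a median of -0.01, which ran from -0.43 without PIO replicate 2 to 0.21 without PIO replicate 1. The glutamate receptor genes Grm7 and Grin2a fell by 1.73 and 1.43 (adjusted p = 0.0372 and 0.0429), the synaptic vesicle priming gene Unc13c fell by 1.31 (adjusted p = 0.0193) and the axonal adhesion gene Cntn4 fell by 1.21 (adjusted p = 0.0429). Cntn4 was the most abundant of them, with 1521, 1409 and 1942 counts in GM and 856, 588 and 819 in PIO. Plppr5, which promotes neurite outgrowth, had 143, 133 and 140 against 64, 64 and 79 (-1.11, SE 0.19, adjusted p = 0.00939). These genes other than Gap43 were chosen after their values were seen. Of the 6 models without 1 library, Plppr5 passed in 4, Gap43 in 3 and Grm7, Grin2a, Unc13c and Cntn4 in 1 each.

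The position of CTRL showed which drug stood away from the untreated level. By fitted log2 fold change, PIO was farther from CTRL than GM was in 51 of the 67 lower genes. In 45 of these 51 the PIO + GM mean in log2 CPM lay nearer to PIO than to GM. In the other 16 lower genes GM was farther from CTRL, and in 14 of these PIO + GM lay nearer to GM. Among the 7 higher genes PIO was farther in 5, each with PIO + GM nearer to PIO, and GM was farther in 2, of which Grk1 had PIO + GM nearer to GM and Rdh9 nearer to PIO. The CTRL mean in log2 CPM lay between the PIO and GM means in 55 of the lower genes and 3 of the higher ones. The genes were chosen on the PIO and GM libraries, so these counts are a description and were not tested. Fitted against CTRL at 24 h in the same model and with the same PIO or GM libraries, PIO gave 6 higher and 19 lower genes (0.0368% and 0.116%) and GM gave 2 higher (0.0123%) and 0 lower genes, with 272 genes at an unadjusted p-value under 0.05 for GM.

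**Figure D3:**
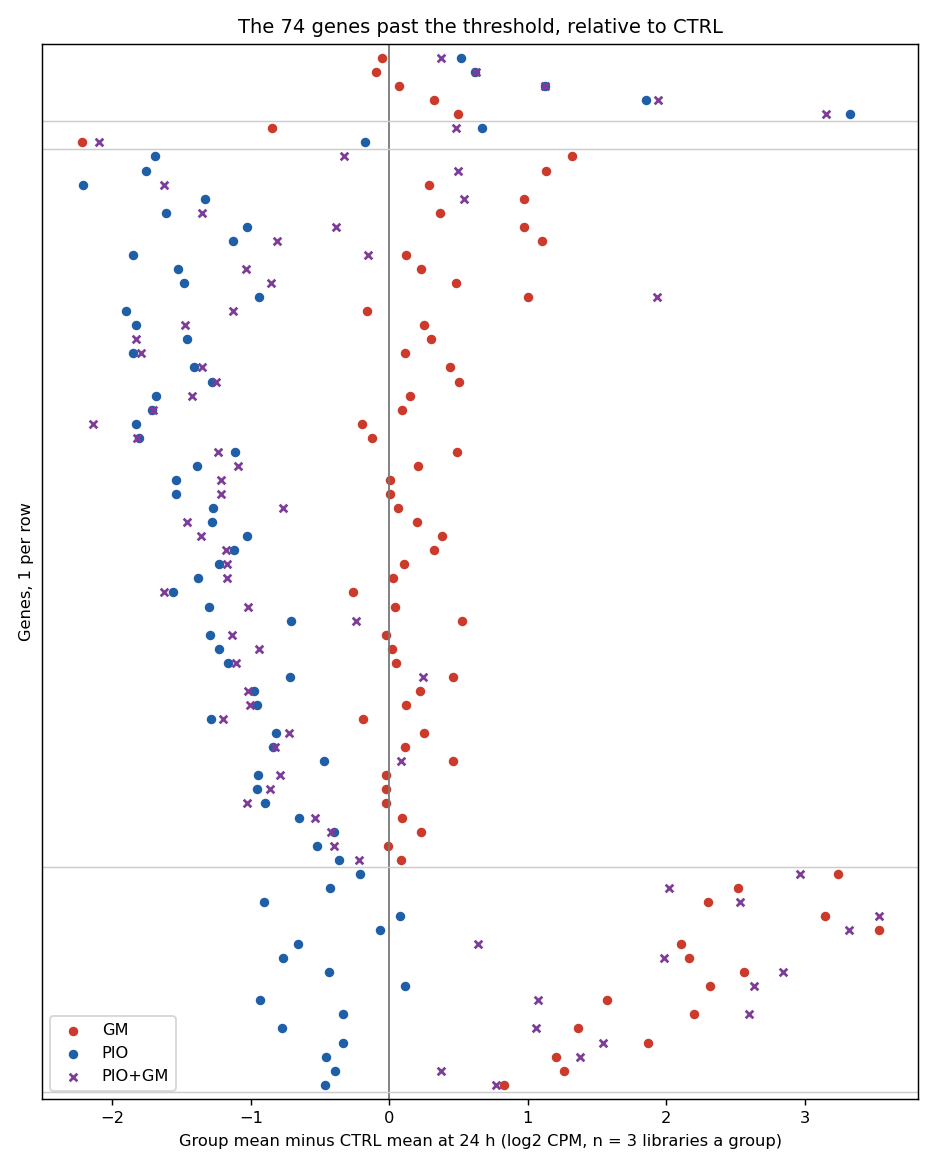
For each of the 74 genes past the threshold, points give the mean of GM (red), PIO (blue) and PIO + GM (purple crosses) minus the CTRL mean at 24 h, in log2 CPM, n = 3 libraries a group; lines separate genes higher (top) and lower with PIO, and within these, genes with PIO or GM farther from CTRL. In most of the large middle block red points sit near 0 and purple crosses sit with the blue points, whereas in the bottom block of 16 genes blue points sit nearer 0 and most crosses sit with the red points.

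Interferon response genes had lower values with PIO almost throughout, but none of those listed passed the threshold. Type I interferons act through a complex of transcription factors that binds the interferon-stimulated response element (ISRE) and switches on antiviral genes. Of 60 such genes 59 were tested, 58 were lower and 1 higher, and 45 were separated downward, against 10.1% of all genes. The median log2 fold change was -1.09, and it lay between -1.25 and -0.90 when any 1 library was left out. In the main model of 24 libraries without a block, 0 genes of this list passed edgeR's quasi-likelihood test. An unadjusted p-value under 0.05 in the lower direction was reached by 43. DESeq2's Wald test passed 14 and edgeR's likelihood ratio test 13. Over the main and 21 other settings, 0 to 14 passed. The mean of the list was 4.17, 3.30 and 3.90 log2 CPM in the GM libraries and 2.66, 2.70 and 2.66 in the PIO libraries. PIO libraries were thus alike and GM libraries were not, with replicate 2 the lowest. In CTRL the list mean was 3.35, 2.76 and 3.82, and the list medians against CTRL were -0.72 for PIO and 0.36 for GM.

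Mx1, an antiviral dynamin-like GTPase whose gene is annotated here as a transcribed pseudogene, had 155, 39 and 111 counts in GM and 8, 11 and 18 in PIO (log2 fold change -3.17, SE 0.71, edgeR adjusted p = 0.0514). Isg15, a ubiquitin-like modifier, had 89, 46 and 71 against 14, 18 and 10 (-2.43, SE 0.63, adjusted p = 0.103), and its removing enzyme Usp18 had 208, 53 and 165 against 29, 28 and 38 (-2.30, SE 0.72, adjusted p = 0.191). Ifit1, which blocks translation of foreign RNA, had 633, 117 and 606 against 86, 44 and 81 (-2.82, SE 0.71, adjusted p = 0.0870). Rsad2, the antiviral enzyme viperin, had 343, 93 and 210 against 26, 35 and 49 (-2.70, SE 0.72, adjusted p = 0.118). In each of these 5 genes the lowest GM library, replicate 2, still lay above the highest PIO library. Zbp1, a sensor of Z-form nucleic acids, was more even in GM, with 83, 74 and 96 counts against 20, 30 and 16 (-2.05, SE 0.47, adjusted p = 0.0548). Ifi44 had a log2 fold change of -2.30 (adjusted p = 0.140). For Irf7, the transcription factor that amplifies interferon production, the groups overlapped, with 164, 71 and 190 against 75, 82 and 46 counts (-1.20, SE 0.62, adjusted p = 0.545). Oas1d, a member of the oligoadenylate synthetase family outside this list, did pass, with 15, 10 and 41 counts against 2, 2 and 1 (adjusted p = 0.0174).

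To show the element where it occurs, the 150 bases before the RefSeq transcription start are given for 4 interferon-inducible genes chosen because they hold it (RefSeq promoter sequences, build GRCm38.p6, 5′ to 3′ on the strand of the gene). Capitals mark matches to the ISRE core on either strand, searched as 2 copies of GAAA with any 2 bases between them, and overlapping matches run together. Isg15 (chr4:156200819-156200968, minus strand) holds 3 overlapping matches, the first starting 78 bases before the start. Rsad2 (chr12:26456453-26456602, minus strand) holds 1 match at 120 bases, Ifit1 (chr19:34640739-34640888, plus strand) holds 2, the first at 104 bases, and Gbp2 (chr3:142620513-142620662, plus strand), an interferon-inducible GTPase gene, holds 1 at 59 bases.
Isg15: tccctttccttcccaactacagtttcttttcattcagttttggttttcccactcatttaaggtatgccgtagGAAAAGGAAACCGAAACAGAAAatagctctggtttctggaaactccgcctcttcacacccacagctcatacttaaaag
Rsad2: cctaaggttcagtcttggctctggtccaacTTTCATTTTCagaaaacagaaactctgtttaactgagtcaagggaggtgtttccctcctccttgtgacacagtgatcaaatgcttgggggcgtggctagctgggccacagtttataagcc
Ifit1: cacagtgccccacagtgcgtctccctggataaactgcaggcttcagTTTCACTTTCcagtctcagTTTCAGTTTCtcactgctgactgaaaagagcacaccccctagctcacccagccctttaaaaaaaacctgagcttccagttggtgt
Gbp2: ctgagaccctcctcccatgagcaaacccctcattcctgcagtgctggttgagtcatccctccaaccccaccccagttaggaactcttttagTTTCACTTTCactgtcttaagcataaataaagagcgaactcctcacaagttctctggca

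Over windows from 250 bases before to 50 after the start, the core was found in 458 of 12624 tested genes with a promoter sequence (3.63%). It was found in 19 of 44 type I interferon response genes (43.2%), in 9 of 10 interferon-inducible GTPase genes (90.0%) and in 5 of 16 MHC class I and peptide loading genes (31.3%). Among PPAR target genes 0 of 30 held it, and among the genes past the threshold in the lower direction 1 of 42 (2.38%). A match describes letters in this window and not binding.

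The interferon-inducible GTPases, which attack vacuoles of intracellular parasites, were lower in 16 of 18 genes. Downward separation held in 11 of them, against 10.1% of all genes, and 1 gene was separated upward. The list median was -1.15, and 1 gene passed the threshold. That gene was Tgtp2, with 94, 20 and 22 counts in GM and 2, 3 and 3 in PIO (log2 fold change -4.21, SE 0.69, edgeR adjusted p = 0.00939). Its value was -2.91 without GM replicate 1, and its call was lost without PIO replicate 1 or 2. Of its windows 81.2% occur in other transcripts, chiefly Tgtp1, which had 163, 34 and 51 against 11, 5 and 12 counts (-3.32, SE 0.77, adjusted p = 0.0582). For Gbp2 the counts were 154, 149 and 255 against 56, 66 and 62 (-1.69, SE 0.48, adjusted p = 0.146). DESeq2's Wald test passed 7 members of this list.

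Among MHC class II genes, which present antigen to helper T cells, the transactivator Ciita passed the threshold, with 15, 25 and 12 counts in GM, 2, 5 and 2 in PIO, 13, 15 and 13 in CTRL and 9, 18 and 13 in PIO + GM (log2 fold change -2.58, SE 0.51, edgeR adjusted p = 0.0208). Its targets differed among themselves: the invariant chain gene Cd74 had 26, 55 and 46 against 15, 16 and 10 (-1.71, adjusted p = 0.134), H2-Aa had 5, 26 and 7 against 1, 4 and 1 (-2.65, adjusted p = 0.147), and H2-Ab1 had 179, 215 and 120 against 163, 246 and 169 (0.05, adjusted p = 0.993). Over 7 tested members 5 were lower and the median was -1.18. It was -0.55 without GM replicate 2 and 0.05 over the 3 members with at least 10 counts in every library. The call of Ciita held in only 1 of the 6 models without 1 library. MHC class I and peptide loading genes were lower in 16 of 19, with 9 separated downward, against 10.1% of all genes. Their median was -0.25 (-0.44 without PIO replicate 2, -0.19 to -0.35 without 1 of the others). Of these genes 0 passed (4 at an unadjusted p-value under 0.05 by edgeR, 1 by DESeq2).

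Complement genes, which tag and lyse targets, were lower in 26 of 32, with a median log2 fold change of -0.42. Of the 32, 9 were separated downward, against 10.1% of all genes. Serping1, the inhibitor of the first complement component, passed the threshold, with 264, 303 and 359 counts in GM and 137, 152 and 119 in PIO (-1.28, SE 0.24, edgeR adjusted p = 0.0155). It was at the GM level in CTRL (means 4.50 and 4.47 log2 CPM) and at the PIO level in PIO + GM (3.36 and 3.20). The call of Serping1 held in 2 of the 6 models without 1 library. The proteases that Serping1 inhibits, C1ra and C1s1, had log2 fold changes of -1.26 and -1.08 (adjusted p = 0.161 and 0.244), with 42.1% and 24.4% of their windows shared with other transcripts.

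Chemokines and their receptors were lower in 21 of 28 tested genes, with 13 separated downward, against 10.1% of all genes. The list median was -0.50, and 0 passed edgeR's test (7 at an unadjusted p-value under 0.05, 1 by DESeq2). Without PIO replicate 2 the median was -1.0. Cxcl10, which recruits T cells in response to interferon, had 128, 67 and 192 counts in GM and 6, 13 and 37 in PIO (log2 fold change -2.86, SE 0.88, adjusted p = 0.184). Cxcl16 had 159, 215 and 220 against 120, 123 and 67 (-1.04, SE 0.28, adjusted p = 0.113), and the monocyte attractant Ccl2 had 51, 25 and 47 against 5, 8 and 7 (-2.72, SE 1.19, adjusted p = 0.431). Ccl9 and Ccl12 overlapped between groups, with values of -0.50 and -0.77 (adjusted p = 0.844 and 0.892). Cytokines and their receptors were lower in 34 of 44, with a median of -0.26 (-0.12 to -0.45 without 1 library) and 0 past the threshold (6 at an unadjusted p-value under 0.05 by edgeR, 1 by DESeq2). The cytokine gene Il16 had 244, 427 and 269 against 110, 184 and 124 counts (-1.26, SE 0.33, adjusted p = 0.111).

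Toll-like receptors sense microbial products and signal through the adaptors Myd88 and Tirap. Of 62 genes of Toll-like receptor and STAT pathways, 45 were lower and 12 were separated downward, against 10.1% of all genes. The median was -0.23 (-0.12 without GM replicate 2), and 0 passed edgeR's or DESeq2's test. At an unadjusted p-value under 0.05 by edgeR, 5 were lower and 1 higher, against 6.55% and 3.63% of all genes. Tlr2 and Tlr4 had log2 fold changes of -0.41 (SE 0.27, adjusted p = 0.706) and -0.34 (SE 0.23, adjusted p = 0.705). Myd88 had -0.21 (SE 0.30), Tirap -0.23 (SE 0.17), the SUMO ligase gene Pias1 0.10 (SE 0.12) and Irf3 0.14 (SE 0.18), with adjusted p-values from 0.753 to 0.921. The symbol Mal denotes a myelin protein gene in the table and not the Toll adaptor, and its value was -0.37 (SE 0.29, adjusted p = 0.767).

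**Figure D4:**
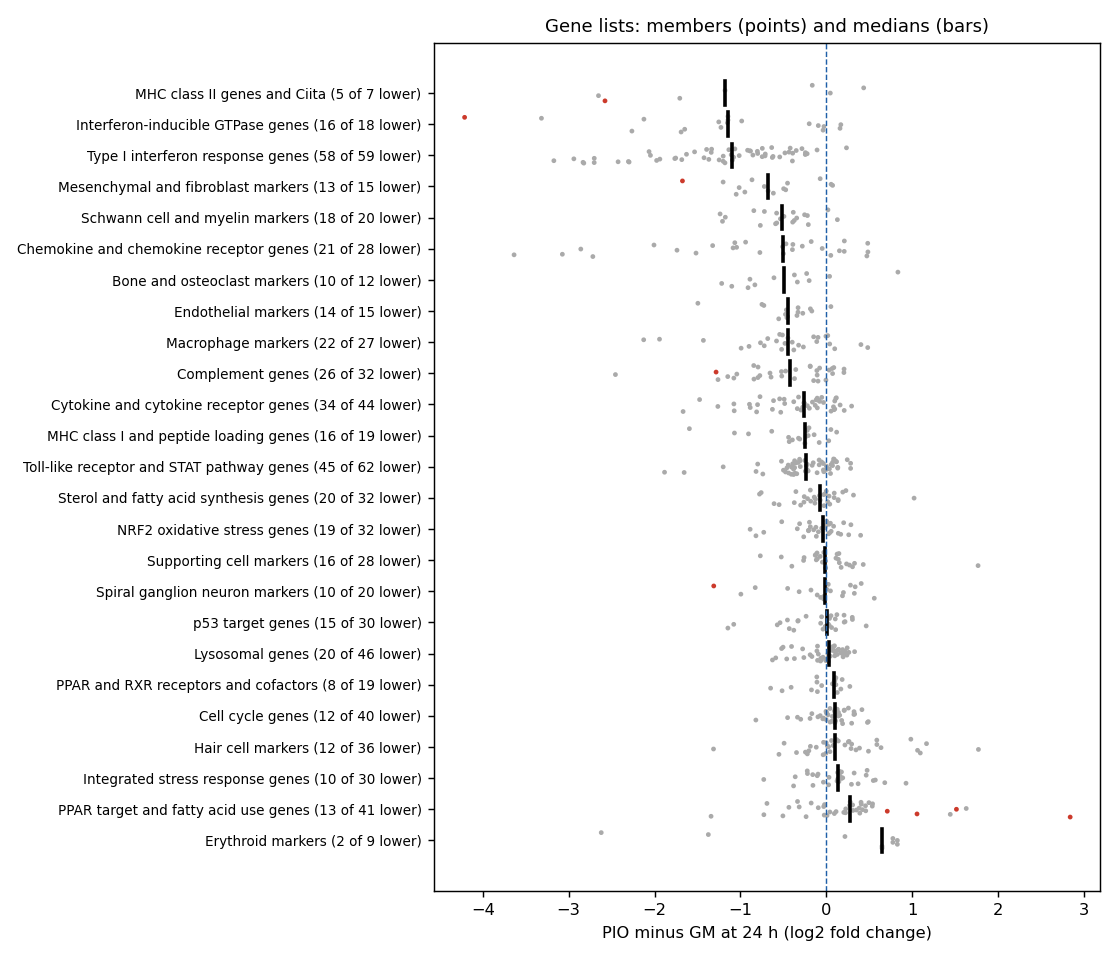
Each row is a gene list, each point a tested member placed by its fitted log2 fold change, PIO minus GM at 24 h (red: past the threshold over all genes; grey: not), black bars are list medians, and the dashed line is the median of all 16317 genes. Medians run from -1.18 for MHC class II genes through -1.09 for type I interferon response genes to 0.27 for PPAR targets and 0.65 for erythroid markers.

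Markers of other cells in the explant had mostly lower values with PIO. Macrophage markers were lower in 22 of 27 genes with a median of -0.45, which was -0.09, -0.27 and -0.17 without GM replicate 2, PIO replicate 1 or PIO replicate 3 and -0.83 without PIO replicate 2. Macrophages express many of the immune genes above. Their summed level was 189 to 392 CPM in GM, 194 to 273 in CTRL and 132 to 374 in PIO, so the groups overlapped, none of the 27 markers was at 0 in all 6 libraries, and the part of macrophage number in the immune differences was not tested. Folr2, a marker of resident macrophages, had 12, 29 and 18 counts against 3, 10 and 3 (-1.94, SE 0.52, edgeR adjusted p = 0.115, 46.9% of its windows shared), and 0 members passed (4 at an unadjusted p-value under 0.05, 0 by DESeq2). Schwann cell and myelin markers were lower in 18 of 20 with a median of -0.51, and endothelial markers in 14 of 15 with a median of -0.45, with 0 past the threshold in either list by edgeR or DESeq2 (2 and 1 at an unadjusted p-value under 0.05). Their summed levels overlapped between GM and PIO, at 1194 to 1857 and 1017 to 1289 CPM for Schwann cells and 433 to 690 and 324 to 514 CPM for endothelium. The Schwann cell median was -0.24 without GM replicate 1, and the endothelial median was -0.05 and -0.23 without GM replicate 2 or PIO replicate 3 and -0.76 without PIO replicate 2. Bone and osteoclast markers were lower in 10 of 12, with a median of -0.49 that was -1.58 without PIO replicate 2, -0.32 without GM replicate 2 and -0.26 without PIO replicate 3, and 0 passed edgeR's or DESeq2's test (1 at an unadjusted p-value under 0.05). Erythroid markers were higher in 7 of 9 with a median of 0.65, which was 0.23 without PIO replicate 2, and 0 passed either test (2 lower at an unadjusted p-value under 0.05 by edgeR). In the latter list Hbb-bs had 315, 316 and 365 counts in GM and 463, 958 and 495 in PIO (0.83, SE 0.44, adjusted p = 0.570).

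Hair cell markers, genes of the cells that gentamicin is known to damage, lay on both sides of 0. Of 36 markers 24 were higher and 12 lower with PIO, the median log2 fold change was 0.10 (0.03 to 0.32 without 1 library), and 0 passed edgeR's or DESeq2's test (3 higher and 2 lower at an unadjusted p-value under 0.05 by edgeR). Against CTRL the list medians were -0.49 for GM and -0.30 for PIO. List means were 3.82, 3.51 and 4.12 log2 CPM in GM, 4.28, 3.49 and 4.26 in PIO and 4.38, 4.14 and 4.53 in CTRL, so PIO replicate 2 lay with the GM libraries. Chrna10, a subunit of the acetylcholine receptor of outer hair cells, had 94, 130 and 188 counts in GM and 427, 200 and 352 in PIO (1.17, SE 0.40, adjusted p = 0.251), with 33.9% of its windows shared. Slc17a8, the glutamate transporter of inner hair cells, went the other way, with 456, 276 and 320 against 129, 133 and 200 (-1.31, SE 0.48, adjusted p = 0.297). Supporting cell markers had a median of -0.01 (-0.04 to 0.20 without 1 library), with 12 higher and 16 lower of 28 and 0 past the threshold (1 at an unadjusted p-value under 0.05 by edgeR, 0 by DESeq2). Hes5, a Notch target of supporting cells, had 5, 58 and 14 counts against 90, 126 and 60 (1.77, SE 0.77, adjusted p = 0.427).

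Stress and growth lists were near the median of all genes. p53 target genes split into 15 higher and 15 lower (median 0.01), lysosomal genes into 26 and 20 (0.03), NRF2 oxidative stress genes into 13 and 19 (-0.03) and sterol and fatty acid synthesis genes into 12 and 20 (-0.07). Integrated stress response genes were higher in 20 of 30 (0.14, but 0.01 without PIO replicate 2, 0.04 without PIO replicate 3 and 0.05 without GM replicate 3, and 0.24 without PIO replicate 1) and cell cycle genes in 28 of 40 (0.10, but -0.16 to 0.43 without 1 library). In these 6 lists 0 genes passed edgeR's test, between 1 and 4 in each had an unadjusted p-value under 0.05, and DESeq2 passed 1, the replication licensing gene Cdc6, which had 72, 120 and 114 counts in GM and 66, 62 and 56 in PIO (log2 fold change -0.82, SE 0.18, edgeR adjusted p = 0.0514 and DESeq2 adjusted p = 0.00744).

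The same comparison at 6 h, in other libraries, passed the threshold for 21 genes (0.129%), 4 higher (0.0245%) and 17 lower (0.104%), and 8 genes passed at both times: Cpt1a, higher, and S100a4, Chd3, Gap43, Sumo3, Gli1, Plau and Krt19, lower. The 24 h call of Krt19, a keratin of epithelia, was lost when any 1 library was left out. Same-numbered GM and PIO libraries of 6 h deviated together, and with the replicate number as a block, chosen after seeing the data, 331 genes passed at 6 h (2.03%), 115 higher and 216 lower, which held all 21 and 14 of the 74 genes of 24 h. Cpt1a had a log2 fold change of 0.82 at 6 h (SE 0.12) and 1.06 at 24 h, and Plau had -2.13 (SE 0.32) and -1.47. Of the 74 genes of 24 h, 55 had the same sign at 6 h (74.3%, against 64.3% of all tested genes). At 6 h Postn (-0.24, SE 0.29) and Serping1 (-0.12, SE 0.24) were close to 0. Crx already had 26, 22 and 27 counts in GM against 8, 7 and 6 in PIO at 6 h (-1.65, SE 0.41, adjusted p = 0.0964), whereas Obox6 had 4, 0 and 7 against 5, 6 and 0 and Fer1l4 10, 14 and 11 against 13, 9 and 14. The neighbours Gm3336 and Pde4c had values above 0 at 6 h, with 4, 14 and 7 counts in GM against 27, 22 and 12 in PIO for Gm3336 (1.46, SE 0.62, adjusted p = 0.264) and 30, 40 and 31 against 83, 63 and 36 for Pde4c (1.04, SE 0.58, adjusted p = 0.386). The type I interferon list had a median of -1.02 at 6 h and -1.09 at 24 h, the GTPase list -0.90 and -1.15, and the PPAR target list 0.15 and 0.27. A test of the difference between the times passed 0 genes with edgeR's quasi-likelihood test (564 at an unadjusted p-value under 0.05, lowest adjusted p = 0.0844), 23 with its likelihood ratio test and 15 with DESeq2. A block for the replicate number gave 5 with the quasi-likelihood test.

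**Figure D5:**
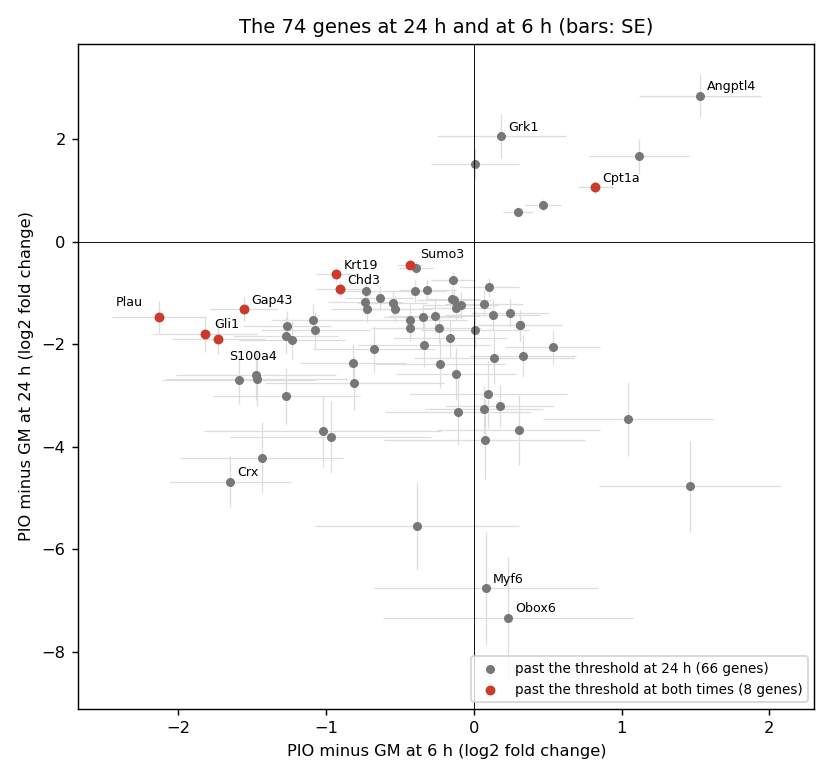
Points are the 74 genes past the threshold at 24 h, with the fitted log2 fold change, PIO minus GM, at 6 h across and at 24 h upward and bars of 1 SE; red marks the 8 genes past the threshold at both times. The red genes lie near the diagonal, while Grk1, Obox6 and Myf6 lie near 0 at 6 h and away from it at 24 h.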

How the data were processed

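The authors dissected OCs, pooled 6 per library, made stranded total RNA libraries, mapped single reads of 76 bases with STAR to mm10 (names as in the submitters' notes) and, with QuasR's qCount, deposited for each of 24454 Entrez genes the raw counts of reads that start in any RefSeq exon. The deposited table gives as its only other values a gene length in bases. The use of strand and of reads with several matches is not given in the sources used here. Symbols were found for 24374 genes.

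Counts of all 24 libraries were fitted with 8 group means in edgeR 4.0.16 (R 4.3.3; TMM factors, filterByExpr, quasi-likelihood F-test, Benjamini-Hochberg adjustment over 16317 genes), after the study's use of edgeR, and SE come from the F statistic. log2 CPM use a prior count of 2. "Separated" means that 3 libraries of one group lie beyond all 3 of the other. A 3 against 3 exact permutation test cannot give a two-sided p-value under 0.1 and was not used. DESeq2 1.42.0 was an alternative. The others are named with their effect at the end. Genes with under 3 counts in every PIO library got a summed ratio with an exact interval (scipy 1.17.1), or a bound where all were 0, in place of a fitted fold.

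Members, gene lists (782 of 784 entries found) and tests were chosen with earlier results of these data known. Named were genes the study singles out, up to 15 past the threshold in each direction by size, for each list up to 4 in each direction past the threshold or else the 2 with the lowest p-value, Angptl4, Crx, Fer1l4, Pdk4 and Plin2. Other genes named were chosen after their values were seen. Some single genes are not reported here. In data simulated for this comparison over 16083 genes, 53.7% of 95 genes with a log2 fold change of 1, 89.4% of 104 with 2 and 5 of 15884 unchanged genes passed. Simulated libraries varied independently, without the shared deviations and uneven sex mix of the real ones, so these rates may not hold for the real data. Shared windows come from GENCODE vM21 transcripts, positions and promoters from RefSeq GRCm38.p6.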

Additional observations from a re-analysis of the deposited data

How the results depend on the processing

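For PIO against GM at 24 h, the count of 74 genes became 73 with DESeq2 size factors, 76 without TMM factors and 61 without a filter, of which 73, 70 and 59 were shared with the 74. It was 44 with at least 10 counts in every library, 238 with the likelihood ratio test, 254 with DESeq2's Wald test, 142 after removal of a GC trend, 191 in a model of the 12 libraries of 24 h and 15 in a model of the 6 libraries alone. Chosen after seeing the data, leaving out genes that averaged under 2 CPM gave 39, and covariates for receptor gene counts and for Y-linked level gave 85 and 71. A block for the replicate number gave 290, with the GC trend removed as well 485, for PIO against GM at 6 h 331 in place of 21, and in the 6 libraries with the block 259. Same-numbered PIO and GM libraries of 24 h correlated in their deviations from group means by -0.02, 0.71 and 0.20, and those of 6 h by 0.19, 0.43 and 0.68. Since 1 pair of 24 h did not correlate, the libraries of 24 h were taken to share only a number, and not every library correlated best with its own. Leaving out 1 library gave 13 to 63 genes: 13, 14 and 22 without PIO replicate 1, 2 and 3, and 36, 63 and 27 without GM replicate 1, 2 and 3. The cause of these differences was not tested. The test of the difference of the PIO against GM contrast between 24 h and 6 h gave 0 genes in each model without 1 library, 23 with the likelihood ratio test, 15 with DESeq2 and 5 with the block. Reversed were 3 genes far from the threshold: Xist (range without 1 library -0.18 to 0.38, below 0 without PIO replicate 1), Eif2s3y (-0.32 to 1.02, below 0 without PIO replicate 2 or GM replicate 3) and H2-Ab1 (-0.19 to 0.19, below 0 without PIO replicate 2 (-0.14) or GM replicate 3), the last also with the receptor covariate (-0.060). Depth limits scarce genes such as Obox6, whose levels rest on 0 to 23 counts.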
